A study of Mus musculus with 6 samples.

Results

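The 8 genes described here encode the peptide hormones by which islet cells of the pancreas are told apart: Ins1, Ins2, Iapp, Gcg, Ghrl, Sst, Ppy and Pyy. They were chosen by name, not by their values, from 24062 gene symbols counted in each library, and all 8 were found. RNA was sequenced from cells sorted out of mouse embryonic dorsal pancreatic buds, in 6 libraries that each stand alone in their group. There were 4 epithelial libraries, control and mutant at embryonic day 12.5 (E12.5) and again at E14.5, and 2 mesenchyme libraries, control and mutant at E12.5, which serve here as background. The labels give the control genotype as mTmG, a reporter that turns from red Tomato to green GFP fluorescence where Cre acts. The mutant genotype is mTmG+/-, Nkx2.5-Cre+/- and Pbx2+/- with a further allele. Nkx2.5-Cre is known for its activity in the mesenchyme around the bud, so the reporter separates mesenchyme from epithelium. No Cre is named for the controls, and the labels do not say how their GFP cells arose. Each library is a pool of frozen sorted fractions, and how many embryos it holds is not given.

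In the mouse pancreas, endocrine cells leave the epithelium after a pulse of the transcription factor Neurog3. An early wave makes mostly glucagon cells, and a later wave, which starts as the bud branches, adds most of the insulin cells. Each hormone is made as a longer precursor that is cut by proprotein convertases inside secretory granules. Mice carry a pair of insulin genes, of which Ins1 arose by retroposition of an Ins2 transcript.

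The beta-cell genes lie apart in the genome (RefSeq gene spans, GRCm38.p6, the assembly also called mm10). Ins1 is on chromosome 19, 52264297 to 52265015. Ins2 is on chromosome 7, 142678656 to 142679726. Iapp, which encodes amylin, a peptide released together with insulin, is on chromosome 6, 142298425 to 142303820. Gcg, the precursor of glucagon and the glucagon-like peptides, is on chromosome 2, 62474530 to 62483653. Ghrl, which encodes ghrelin, the product of epsilon cells, is on chromosome 6, 113716119 to 113719911. Sst, which encodes the inhibitory hormone somatostatin of delta cells, is on chromosome 16, 23889573 to 23891342. Ppy, the gene for pancreatic polypeptide, and Pyy, the gene for peptide YY, lie side by side on chromosome 11 (102099931 to 102101319 and 102106676 to 102107832), 5357 bases apart and on the same strand.

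RefSeq's promoter table held 7 of the 8 genes. The windows below run from 250 bases before the transcript start to 50 bases after it. They are shown for the beta-cell genes Ins1 and Iapp, and for Gcg, which was high throughout. Capitals mark TAAT, the core that homeodomain proteins such as Pdx1 bind, and CAGNTG, an E-box that basic helix-loop-helix proteins such as Neurod1 bind. Both strands were searched, so TAAT also appears as ATTA and CAGNTG as CANCTG.
Ins1, chr19:52264047-52264346, plus strand: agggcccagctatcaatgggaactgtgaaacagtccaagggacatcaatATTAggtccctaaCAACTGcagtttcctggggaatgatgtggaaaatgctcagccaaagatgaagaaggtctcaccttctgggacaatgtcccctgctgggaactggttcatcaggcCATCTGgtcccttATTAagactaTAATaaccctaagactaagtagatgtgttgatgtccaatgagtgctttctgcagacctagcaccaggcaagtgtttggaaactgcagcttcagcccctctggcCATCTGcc
Iapp, chr6:142298175-142298474, plus strand: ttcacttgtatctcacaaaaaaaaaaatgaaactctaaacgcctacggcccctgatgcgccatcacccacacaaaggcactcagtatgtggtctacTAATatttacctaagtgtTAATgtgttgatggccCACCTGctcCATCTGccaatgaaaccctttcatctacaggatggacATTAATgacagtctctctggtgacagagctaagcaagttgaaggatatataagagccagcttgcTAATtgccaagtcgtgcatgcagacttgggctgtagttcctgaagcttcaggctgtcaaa
Gcg, chr2:62483604-62483903, minus strand: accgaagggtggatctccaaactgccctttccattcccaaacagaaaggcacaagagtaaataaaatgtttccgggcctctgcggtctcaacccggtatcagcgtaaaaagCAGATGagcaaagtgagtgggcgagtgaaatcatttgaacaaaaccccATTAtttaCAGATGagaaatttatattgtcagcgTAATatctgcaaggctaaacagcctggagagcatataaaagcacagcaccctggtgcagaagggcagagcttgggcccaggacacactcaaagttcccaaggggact
The Ins1 window held TAAT in 3 places and CAGNTG in 3, the Iapp window in 5 and 2, and the Gcg window in 2 and 2. These motifs are short and common. Of 32817 promoter windows of the same length, 58.0% held TAAT and 51.4% held CAGNTG. The Sst window held TGACGT, the start of the cyclic AMP response element, in 2 places that overlap on opposite strands. It also held TGATTNAT in 1 place. Among all promoters, 7.51% held TGACGT and 3.22% held TGATTNAT. TAAT and CAGNTG were in no place of the Ppy window or of either Pyy window, and a match or its lack says nothing here of binding.

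Library totals on genes lay between 14032569 and 20276045 reads. Levels are CPM, read counts scaled to library size with TMM factors. With 1 library per group there is no spread between replicates, so no p-value is given and no order of levels can be read against replicate error. Intervals are exact, cover 95% and count reading error only. How far 2 libraries differ in general is larger than that: over all genes, log2 genotype ratios at E14.5 had an SD of 0.51 at 50 to 500 CPM. Mesenchyme held little epithelial RNA. A list of 30 general epithelial genes summed to 142 and 110 CPM in control and mutant mesenchyme, against 4773 and 4113 CPM in the E12.5 epithelia. The epithelial cadherin Cdh1 was 211 to 628 CPM in epithelium and 0.738 CPM or less in mesenchyme. Krt19, a keratin gene, was less distinct, at 57.7 and 57.4 CPM in the E12.5 epithelia and 6.17 and 9.97 CPM in mesenchyme. The epithelial libraries were not likewise low in mesenchymal RNA. The summed level of 30 mesenchymal genes was 6588 and 7654 CPM in the E12.5 epithelial libraries (control and mutant-labelled), 6849 CPM in the E14.5 control and 14051 CPM in the E14.5 mutant-labelled library, against 13554 and 12090 CPM in mesenchyme. The E14.5 mutant-labelled library, sorted as epithelium, thus stood above both mesenchyme libraries on this sum. Pbx2, with 1 mutant copy in the mutants, was 1.39-fold higher (1.24 to 1.56) in the E14.5 library labelled mutant than in its control, and stood at 49.7 CPM against 54.5 CPM in the control at E12.5. In mesenchyme it was 89.9 CPM in the control against 56.0 CPM in the mutant, the direction of the label. The check thus does not show the loss of a copy in epithelium, and these are called the libraries labelled mutant, or mutant-labelled.

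Gcg was the most abundant hormone gene in every epithelial library, per length as well. Its levels were 802 CPM for the E12.5 control, 741 CPM for the E12.5 library labelled mutant, 863 CPM for the E14.5 control and 619 CPM for its mutant-labelled counterpart. Pyy was 130, 128, 208 and 176 CPM in the same order. These genes were thus already expressed at E12.5, and their 4 values span less than a doubling. Gcg had 11.4, 7.55, 8.44 and 5.77 reads per exon base in that order. The counts are named as deduplicated. Whether that held down the counts of so densely read a gene, and with them its ratios and shares, was not tested.

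The insulin genes and Iapp followed another course. Ins2 was 0.848 and 0.526 CPM at E12.5 (18 and 8 reads), then 405 and 115 CPM in the E14.5 control and mutant-labelled libraries. Ins1 was 1.70 and 1.18 CPM at E12.5 (36 and 18 reads), then 145 and 40.9 CPM. Iapp was 17.4 and 10.1 CPM at E12.5, then 369 and 135 CPM. All 3 were low in both E12.5 libraries and highest in the E14.5 control, with the E14.5 mutant-labelled library between.

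The remaining genes were less abundant than Gcg and Pyy in every epithelial library. Ghrl was 6.97 and 4.93 CPM at E12.5 and 71.2 and 55.4 CPM at E14.5. Sst was 0.0471 and 0.329 CPM at E12.5 (1 and 5 reads) and 17.5 and 10.8 CPM at E14.5. Ppy was 1.79 and 1.25 CPM at E12.5 and 6.10 and 4.17 CPM at E14.5. For each of them, both E14.5 values lay above both E12.5 values.

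Mesenchyme held almost none of these transcripts. The 8 genes summed to 12 reads (0.805 CPM) in the control and 10 reads (0.643 CPM) in the mutant, against 20397 and 13511 reads in the E12.5 epithelia. Pyy and Ppy had no read in either mesenchyme library, which allows up to 0.155% of the control epithelial level for Pyy and up to 11.2% for Ppy at the limit of 3 reads. The upper ends of the exact intervals were 0.190% and 13.8%. Gcg had 6 and 2 reads. Called means a ratio of at least 2-fold whose interval leaves out 1, in a gene with 5 CPM or more in either library. A gene over that limit in a single library of the pair can only be called higher there. In the controls 4 hormone genes were measured and called lower in mesenchyme (13.6% of all genes were), and in the mutants 3 were (12.9% of all genes). They passed the 5 CPM limit through epithelium alone, which fixes the call, so nothing is read from these counts. Gcg was 1993-fold lower (915 to 5431) in control mesenchyme, and Pyy at least 646-fold lower at the floor of 3 reads. The interval of Pyy reached down to 525-fold. The summed hormone level in mesenchyme was 0.0838% (0.0433 to 0.146) of that in epithelium for the controls and 0.0724% (0.0347 to 0.133) for the mutants. The same share was 2.97% and 2.67% for 30 general epithelial genes, and 0.886% and 0.723% for 23 acinar genes, which make digestive enzymes. It was 27.1% and 36.5% for 22 pan-endocrine genes, a list used below as a reference, some of which mesenchyme also expresses. Sst at E12.5 was at the level of mesenchyme, 1 and 5 reads in epithelium against 1 and 2 reads, so its expression at that stage was not detectable at this depth. Ins2 in the mutants had 8 reads in epithelium against 3 in mesenchyme. Its mesenchyme level was 36.7% of the epithelial level (7.57 to 107), so counting did not separate the fractions.

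**Figure D1:**
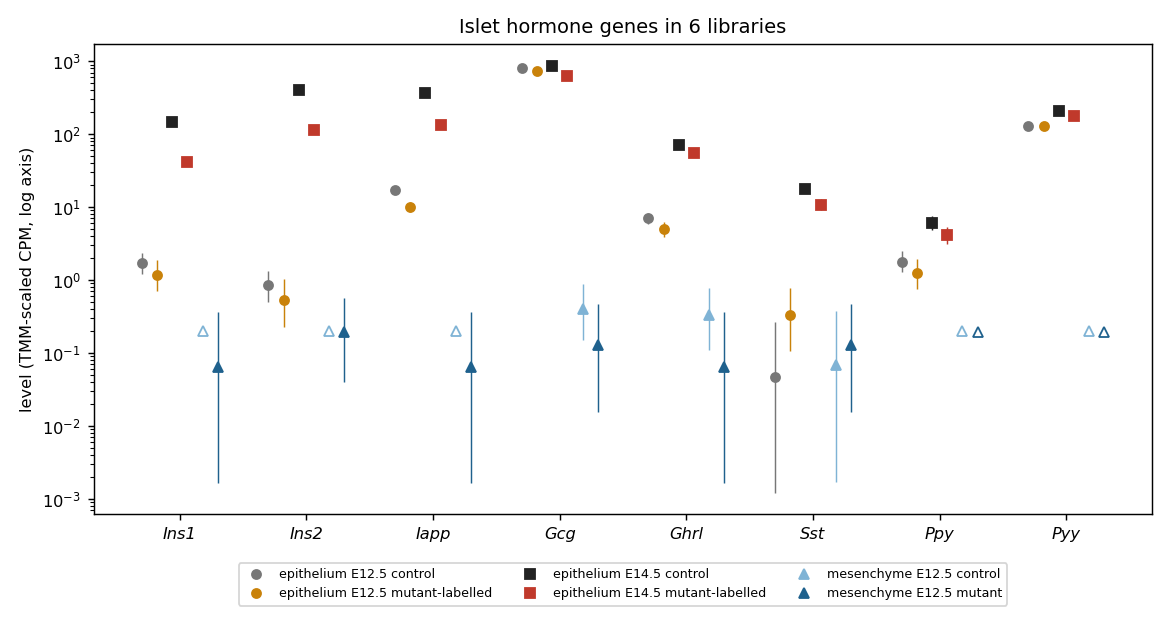
Level of each hormone gene in TMM-scaled CPM (log axis) in the 4 epithelial libraries (circles E12.5, squares E14.5) and the 2 mesenchyme libraries (triangles). Bars are 95% intervals from counting alone, and open symbols mark genes with no read, drawn at the level of 3 reads. Gcg and Pyy are high at both stages, while the insulin genes, Iapp, Ghrl and Sst are higher at E14.5.

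Levels of different genes were compared per kilobase of exon, as shares of the summed level of the 8. Gcg made up 69.5% of that sum in the E12.5 control and 69.1% in the E12.5 mutant-labelled library, and Pyy 26.6% and 28.2%. At E14.5 the Gcg share was 31.5% in the control and 40.1% in the mutant-labelled library. Gcg and Pyy thus made up nearly all hormone transcript at E12.5 and a smaller part at E14.5. Iapp had shares of 20.7% and 13.4% at E14.5, Ins2 16.8% and 8.49%, and Ins1 7.45% and 3.73%. Pyy had 18.0% and 27.1%, and Ghrl 3.60% and 4.97%. Gcg ranked highest in all 4 libraries with each of 4 ways to set length. The order of Iapp, Pyy and Ins2 at E14.5 did not hold: with the longest RefSeq-matched transcript, 552 bases for Ins2 in place of 1312 bases of merged exons, Ins2 came second in the control with 27.7%.

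Shares of reads need no length when 1 group of genes is followed across libraries. Ins1, Ins2 and Iapp together gave 2.07% of hormone reads in the E12.5 control (1.88 to 2.28, exact Clopper-Pearson interval) and 1.32% (1.14 to 1.53) in the E12.5 mutant-labelled library. They gave 44.1% (43.5 to 44.6) in the E14.5 control and 25.1% (24.5 to 25.8) in the E14.5 mutant-labelled library. The beta-cell share was thus higher at E14.5 in both genotypes, and lower at E14.5 in the library labelled mutant. At E12.5 Iapp gave 369 of 423 and 153 of 179 of these reads, and the intervals of the Ins1 and Ins2 shares overlapped between the genotypes.

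**Figure D2:**
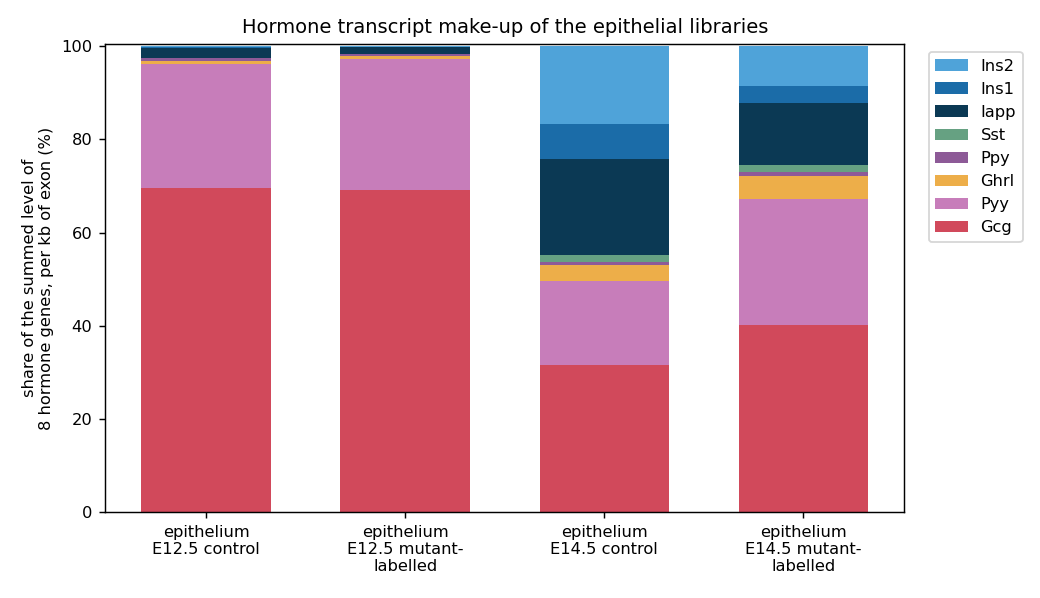
Stacked bars give each gene's share (%) of the summed per-kilobase level of the 8 hormone genes in the 4 epithelial libraries. Gcg and Pyy fill most of both E12.5 bars, and the blue beta-cell genes take a larger part of the E14.5 control bar than of the E14.5 mutant-labelled bar.

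From E12.5 to E14.5, the control epithelium gained insulin, amylin, ghrelin, somatostatin and pancreatic polypeptide transcripts, while the CPM of Gcg stayed near its E12.5 value. All 8 genes were measured, 6 were called higher and none lower, against 6.53% of all genes called higher and 11.2% called lower. Ins1, Ins2, Sst and Ppy passed the 5 CPM limit through E14.5 alone. They could not be called lower, so nothing is read from this count. The median log2 ratio of the 8 was 3.88, against -0.03 over all genes. In bulk RNA, more cells of a type and more transcript per cell cannot be told apart.

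Ins2 was 477-fold higher (302 to 806) and Ins1 85.5-fold higher in the E14.5 control. Iapp was 21.2-fold higher (19.1 to 23.7). Ghrl was 10.2-fold higher (8.60 to 12.2) and Ppy 3.41-fold higher (2.31 to 5.12). Sst, with 1 read at E12.5, had a ratio of 372 with an interval from 66.2 to 14762. The intervals of Ins2 and Ins1 do not overlap. Gcg and Pyy were below the threshold, with Pyy at 1.60-fold (1.52 to 1.69) and Gcg at 1.08-fold (1.05 to 1.10) above their E12.5 levels. The direction of Gcg turned with plain CPM (log2 ratio -0.05 in place of 0.11) and on the scale of the general epithelial genes, where Gcg was 1.57-fold and Pyy 1.06-fold lower.

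Between the libraries labelled mutant, 7 genes were measured, 5 were called higher and none lower, against 6.27% and 5.89% of all genes. Here Ins1, Ins2, Ghrl and Sst passed the limit through E14.5 alone, so nothing is read from this count either. Ppy, at 1.25 and 4.17 CPM, was under the 5 CPM limit. Ins2 was 219-fold higher (111 to 508), Ins1 34.6-fold, Iapp 13.4-fold (11.4 to 15.9), Sst 33.0-fold (13.8 to 103) and Ghrl 11.2-fold (8.86 to 14.4). The Ins2 ratio rests on 8 reads at E12.5, a level that counting did not separate from mesenchyme. Pyy was 1.38-fold above its E12.5 level (1.30 to 1.46), and Gcg was 1.20-fold below it (1.17 to 1.23). On the TMM scale Gcg was the only hormone gene below its E12.5 level here.

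The pan-endocrine genes, markers of endocrine cells as a whole, were higher at E14.5 as well. In the controls 17 of 22 were called higher (6.53% of all genes were), with a median log2 ratio of 1.35. In the mutant-labelled libraries 18 of 22 were called higher (6.27% of all genes were), with a median of 1.61. Relative to those medians, Gcg was called lower at E14.5, 2.37-fold in the controls and 3.66-fold in the mutant-labelled libraries. Pyy was 1.60-fold and 2.22-fold lower on that scale, the latter past the threshold. The insulin genes, Iapp, Ghrl and Sst stayed called higher on it. Ppy in the controls was then 1.33-fold higher and no longer called.

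Ratios of reads within a library depend on no library scaling. There were 50 Ins2 reads per 100 Ins1 reads in the E12.5 control (26.7 to 90.4) and 44.4 in the E12.5 mutant-labelled library (16.7 to 107). At E14.5 there were 279 (265 to 293) and 281 (256 to 310). The balance of the insulin pair thus moved toward Ins2 with stage, 5.58-fold in the controls (3.08 to 10.5) and 6.32-fold in the mutant-labelled libraries (2.60 to 16.9). The latter rests on 8 Ins2 and 18 Ins1 reads at E12.5. The longest stretch shared by the transcripts of the pair is 56 bases, and 7 of 1013 Ins1 windows of 50 bases are also in Ins2. Iapp outnumbered Ins2 at E12.5, with 2050 reads per 100 Ins2 reads in the control (1279 to 3498). At E14.5 the control had 91.2 (87.9 to 94.6). Per 100 Pyy reads, Ppy gave 1.38 in the E12.5 control and 2.93 in the E14.5 control, a 2.13-fold rise of the ratio (1.44 to 3.21). Pyy itself went from 16.2 to 24.1 reads per 100 Gcg reads, 1.49-fold (1.40 to 1.57).

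**Figure D3:**
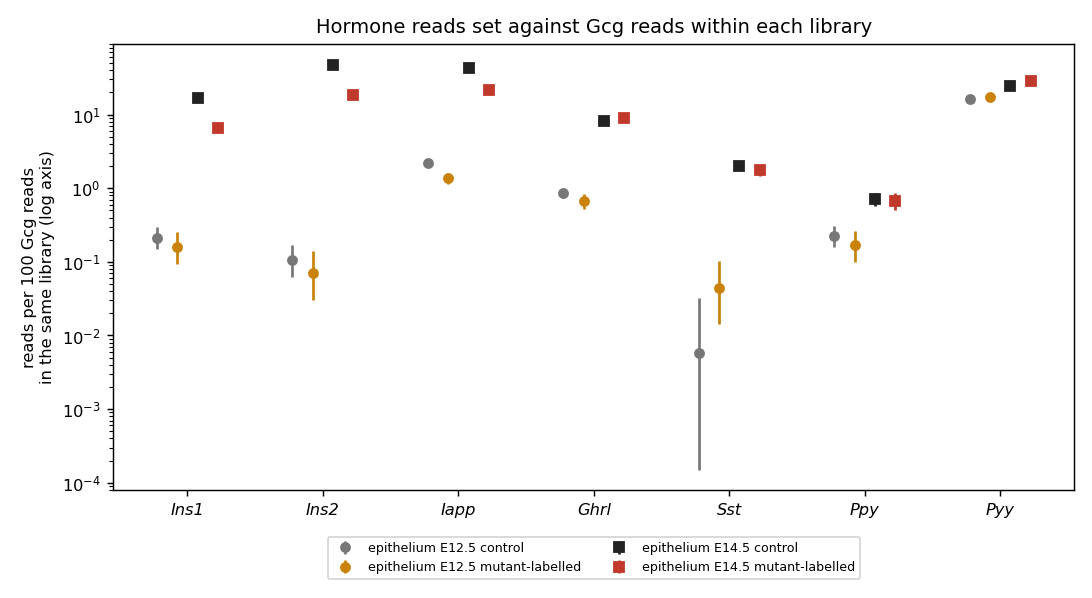
Reads of 7 hormone genes per 100 Gcg reads in the same library (log axis), with 95% counting intervals, in the 4 epithelial libraries. At E14.5 the control lies above the mutant-labelled library for Ins1, Ins2 and Iapp, while Ghrl, Sst and Ppy have overlapping intervals.

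At E14.5, the mutant-labelled library held less of the beta-cell transcripts than the control, and the other hormone genes were under the 2-fold threshold. All 8 genes were measured: 3 were called lower (Ins1, Ins2 and Iapp) and none higher, against 6.40% of all genes called lower and 9.64% called higher. Ins1 was 3.55-fold, Ins2 3.52-fold and Iapp 2.74-fold lower in the mutant-labelled library. The other 5 were under 2-fold: Sst 1.62-fold (1.32 to 1.99), Ppy 1.46-fold (1.04 to 2.07), Gcg 1.40-fold (1.36 to 1.43), Ghrl 1.29-fold (1.17 to 1.41) and Pyy 1.18-fold (1.12 to 1.24) below the control. The median log2 ratio of the 8 was -0.62 against -0.03 over all genes. Among all genes at 50 to 500 CPM the central 95% of log2 ratios ran from -1.08 to 1.09, and Ins1 (-1.83), Ins2 (-1.82) and Iapp (-1.45) lay below that range.

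The make-up of the sorted pools moved with this comparison. The summed level of 30 general epithelial genes was 8829 and 4820 CPM in the E14.5 control and mutant-labelled libraries. Of these genes 15 of 30 were called lower (6.40% of all genes were), with a median log2 ratio of -0.98. The summed level of the mesenchymal genes was 6849 and 14051 CPM, with 20 of 29 measured called higher (9.64% of all genes were). None of the 30 mesenchymal genes was at 0 in either library. Acinar genes summed to 23592 and 5561 CPM, with 17 of 17 measured called lower. The part of this shift in the hormone ratios was not tested. Relative to the general epithelial genes no hormone gene was called. Ins1 was then 1.80-fold, Ins2 1.78-fold and Iapp 1.39-fold lower, while Gcg (1.41-fold), Ghrl (1.53-fold), Sst (1.22-fold), Ppy (1.35-fold) and Pyy (1.67-fold) lay on the higher side. Relative to the 22 pan-endocrine genes, whose median was -0.05, Ins1, Ins2 and Iapp stayed called lower, 3.43-fold, 3.40-fold and 2.65-fold.

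**Figure D4:**
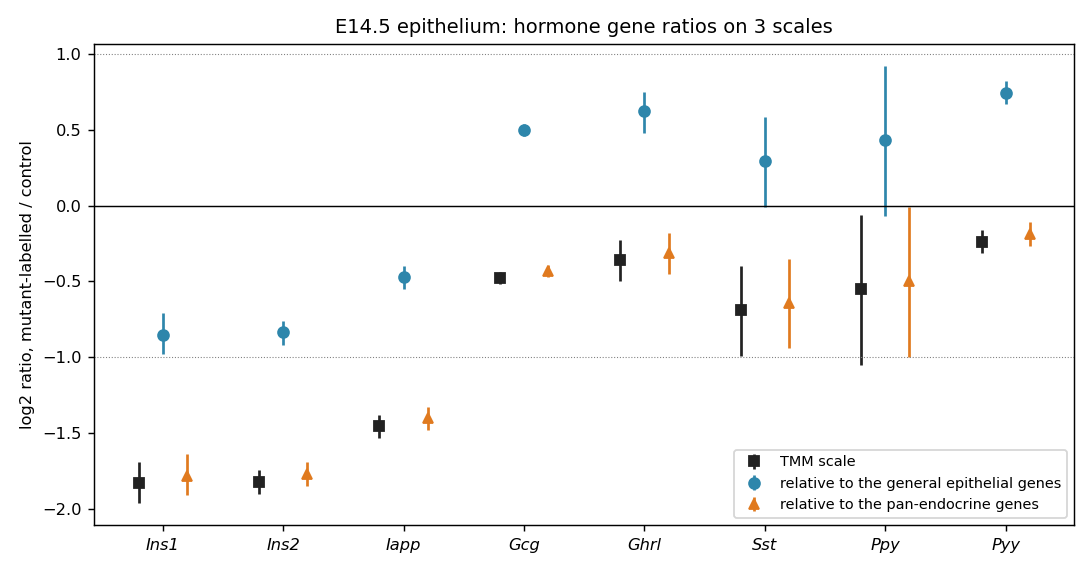
Log2 ratio of the E14.5 mutant-labelled library to the E14.5 control for each hormone gene on the TMM scale (squares), set against the general epithelial median (circles) and against the pan-endocrine median (triangles), with 95% counting intervals. Dotted lines mark 2-fold. Ins1, Ins2 and Iapp lie below 0 on all 3 scales, and the other 5 change side with the general epithelial reference.

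Set against Gcg within the library, where library scaling cancels, the beta-cell genes remained lower. Ins2 gave 46.9 reads per 100 Gcg reads in the E14.5 control (45.4 to 48.3) and 18.6 in the mutant-labelled library (17.6 to 19.6), 2.52-fold fewer (2.37 to 2.68). Ins1 gave 16.8 and 6.61, 2.54-fold fewer (2.31 to 2.80). Iapp gave 42.7 and 21.8, 1.96-fold fewer (1.85 to 2.08). The 3 genes thus shared a direction, and Iapp was lower by less than Ins2: Iapp reads per 100 Ins2 reads went from 91.2 to 117, a 1.28-fold rise of the ratio (1.19 to 1.39). The insulin pair kept its balance, with a change of 1.01-fold (0.905 to 1.13) in Ins2 per Ins1. Ghrl per Gcg changed by 1.08-fold (0.983 to 1.20), Sst per Gcg by 0.863-fold (0.700 to 1.06) and Ppy per Gcg by 0.954-fold (0.672 to 1.34), intervals that hold 1. Pyy per Gcg was 1.18-fold higher (1.11 to 1.26).

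At E12.5, no hormone gene differed between the genotypes by 2-fold with an interval that left out 1. Of 4 measured genes (Iapp, Gcg, Ghrl and Pyy) none was called, against 1.79% of all genes called higher and 3.21% called lower. No test exists for a pair of single libraries, and the intervals show what counting allows. Iapp was 1.73-fold below the control in the mutant-labelled library (1.43 to 2.10) and Ghrl 1.41-fold (1.06 to 1.89). Gcg was 1.08-fold below it (1.06 to 1.11) and Pyy 1.01-fold (0.957 to 1.08). The intervals of Ins1 (0.793 to 2.68) and Ins2 (0.667 to 4.29) around 1.43-fold and 1.61-fold lower hold 1. Relative to the general epithelial genes Gcg and Pyy lay on the higher side instead, 1.04-fold and 1.11-fold, and Iapp was 1.54-fold lower. Iapp per Gcg was 1.60-fold lower (1.32 to 1.95). The general epithelial genes summed to 4773 and 4113 CPM in these libraries.

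On the TMM scale, the genotype ratio of some genes differed between E14.5 and E12.5. The difference of the log2 ratios, E14.5 minus E12.5, was -1.31 for Ins1 (-2.13 to -0.48), -0.66 for Iapp (-0.95 to -0.38), -0.37 for Gcg (-0.42 to -0.32) and -0.22 for Pyy (-0.33 to -0.10). For Ins2 it was -1.13 with an interval that reaches 0 (-2.33 to 0.08), since Ins2 had 8 reads in the E12.5 mutant-labelled library. For Sst it was -3.50 (-6.61 to -0.38), from a ratio on the higher side at E12.5 (2.80) that rests on 1 read in the control. For Ghrl it was 0.14 (-0.29 to 0.56) and for Ppy -0.03 (-0.96 to 0.90). Against the general epithelial genes, the log2 ratio of Iapp was -0.62 at E12.5 and -0.47 at E14.5, nearer to 0 at E14.5. That of Gcg was 0.05 and 0.50 and that of Pyy 0.15 and 0.74. The differences of Iapp, Gcg and Pyy thus change sign on that scale. Ins1 had -0.35 (-1.26 to 0.50) at E12.5 and -0.85 at E14.5, and Sst 2.97 (-0.19 to 8.53) and 0.29. For Ins1 and Sst the E12.5 interval there holds the E14.5 value. The TMM differences are the same numbers as the difference between the genotypes in the change with stage. The epithelial comparisons share libraries, so they do not support one another. The file of the E12.5 control is named in another form than the other 5, and if that reflects another sequencing run it cannot be told apart from the group.

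**Figure D5:**
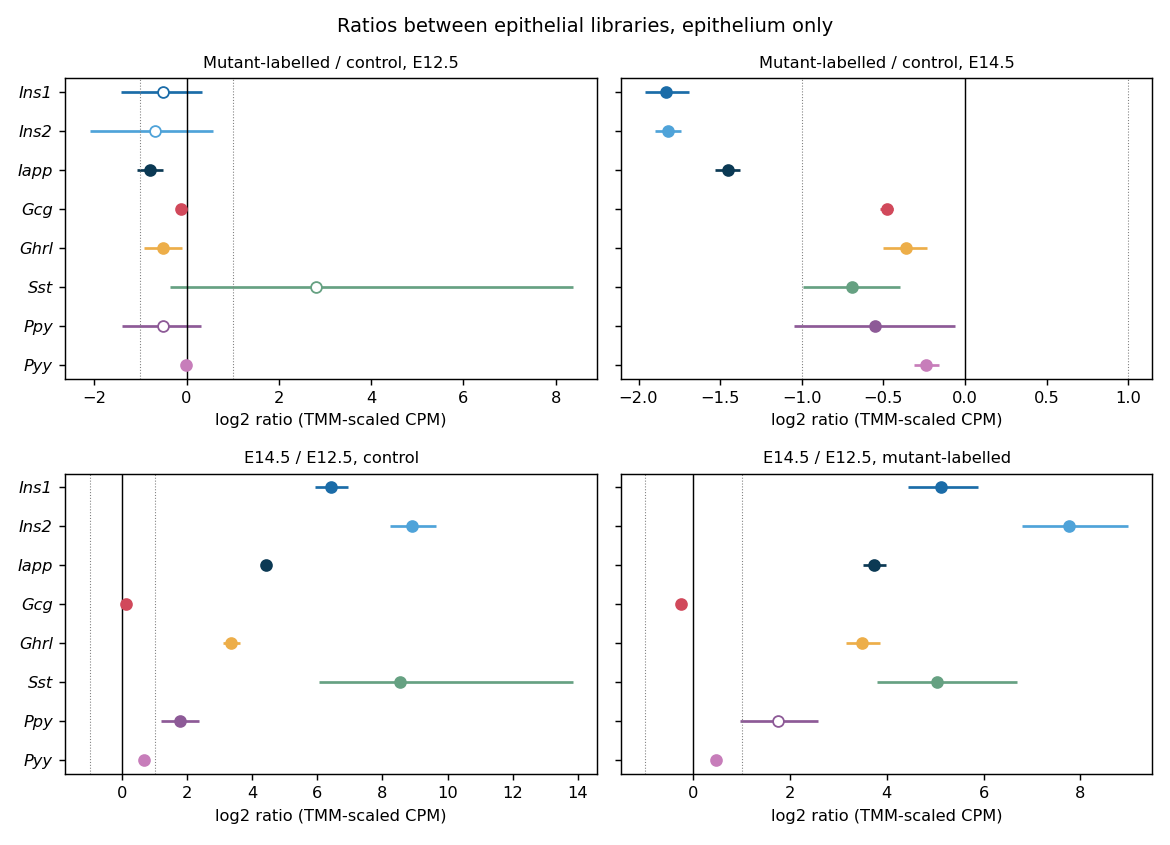
Log2 ratios of the 8 hormone genes with 95% counting intervals in the 4 epithelial comparisons, each panel with its own horizontal range. Open symbols mark genes under 5 CPM in both libraries, dotted lines mark 2-fold. Ins1, Ins2 and Iapp lie left of the lower line at E14.5, and Gcg and Pyy lie within 2-fold in all 4 panels.

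Profiles over the 6 libraries were compared by the root mean square distance between centred log2(CPM + 0.5) values. Among the hormone genes the closest pairs were Gcg with Pyy (0.84) and Ins1 with Ins2 (0.90), and Gcg with Sst was the farthest (4.03). Ghrl lay nearer to Ins1 (0.96) and to Iapp (0.99) than Ins1 and Iapp lay to each other (1.17). Among 10851 other genes at 10 CPM or more in an epithelial library, those nearest to Ins1 were Ctrc (0.74), Bhlha15 (0.77) and Amy2b (0.80), which encode a chymotrypsin, an acinar transcription factor and an amylase. Those nearest to Iapp were Cel (0.57), a lipase gene, Nupr1 (0.58) and Bhlha15 (0.60). Bhlha15 stood at 199 and 47.0 CPM in the E14.5 libraries. Nearest to Ins2 were Amy2b (0.75), Tpsb2 (1.15) and Ctrc (1.52). Nearest to Gcg were Ambp (0.30), Spp1 (0.61) and Cdh1 (0.64), and nearest to Pyy were Rbp4 (0.24), Ttr (0.30) and Cldn3 (0.34). Nearest to Ghrl were Tmprss4 (0.46), Cryba2 (0.49) and Dbpht2 (0.52). For Sst they were Ppp1r1b (0.54), Igfbp6 (0.73) and Cela3b (0.74), and for Ppy Map3k5 (0.11), Chadl (0.13) and Ptpn18 (0.17). These distances describe 6 libraries that differ in fraction and stage, and Ins1, Ins2, Sst and Ppy had 38 reads or fewer in each E12.5 library.

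Of 14 genes that process hormone precursors, 7 were called higher with stage in the controls and 4 in the mutant-labelled libraries (6.53% and 6.27% of all genes were), with none lower. Pcsk1, a convertase of proinsulin, went from 16.5 to 45.3 CPM in the controls, 2.75-fold (2.41 to 3.14), and from 14.2 to 36.7 CPM in the mutant-labelled libraries. Pcsk2, which cuts proglucagon to glucagon, went from 30.1 to 94.5 CPM in the controls. Mboat4, which acylates ghrelin, went from 4.43 to 9.80 CPM and from 5.06 to 12.6 CPM. Pcsk1 was thus higher at E14.5 in both genotypes, as most hormone genes were. Relative to the general epithelial genes none was called higher and 3 lower with stage in the controls, while 4 were called higher in the mutant-labelled libraries. Among all genes called on that scale, 5.57% and 34.2% were higher. Relative to the pan-endocrine genes, a list that holds Scg5, Cpe and Pcsk1n too, none was called higher, and 5 were called lower in the controls and 8 in the mutant-labelled libraries. On that scale Pcsk1n, Cpe and Mboat4 changed side in both, Sec11c in the controls and Pcsk1 in the mutant-labelled libraries. In the genotype comparison at E14.5 only Pcsk5 was called, 2.11-fold higher (1.77 to 2.53), where 9.64% of all genes were called higher. Pcsk2 was 94.5 and 48.3 CPM and Cpe, the carboxypeptidase that trims the cut peptides, 387 and 371 CPM. At E12.5 only Scg5, a chaperone of Pcsk2, was called, at 5.32 and 11.9 CPM (2.23-fold higher, 1.76 to 2.85). Of all genes, 1.79% were called higher there.

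Most genes on the list of receptors for these hormones were under 5 CPM. Igf1r, at 106 and 85.1 CPM in the E12.5 control and mutant-labelled libraries, and Insr, at 35.3 and 37.1 CPM, were not. Of 22 genes, 9 reached 5 CPM in the E12.5 genotype comparison and none was called (1.79% of all genes were higher, 3.21% lower). At E14.5, 6 were measured and 3 called higher in the mutant-labelled library (9.64% of all genes were), all of them Ramp genes, whose proteins join the calcitonin receptor to form amylin receptors and also serve other receptors. Endothelial markers, a list that holds Ramp2 too, summed to 379 CPM in both libraries. Of 15 measured, 5 were called higher and 1 lower (9.64% and 6.40% of all genes were). Their part in the Ramp ratios was not tested. Ramp3 stood at 1.92 and 16.3 CPM, over the 5 CPM limit in the mutant-labelled library alone, and at 18.3 and 36.7 CPM in mesenchyme. The calcitonin receptor gene Calcr itself was 8.15 CPM in the E12.5 control and had no read in either E14.5 library. With stage, the controls had 3 of 8 called lower (Igf1r, Calcr and Ramp3) and none higher, where 11.2% and 6.53% of all genes were. The mutant-labelled libraries had 2 of 8 called lower (Insr and Sstr2) and 1 higher (Ramp3), where 5.89% and 6.27% of all genes were. Ghsr, the ghrelin receptor gene, had 1 read in all 6 libraries together. No called receptor gene changed side on the relative scales, where 4 (general epithelial) and 3 (pan-endocrine) were called higher at E14.5. Among all genes called on these scales, 97.5% and 63.7% were higher.

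Of 25 other peptide hormone and neuropeptide genes, 9 were measured in the E14.5 genotype comparison, 5 called higher and 1 lower (9.64% and 6.40% of all genes were). Cck (19.0 and 41.0 CPM), Vip, Trh, Penk (31.2 and 78.5 CPM) and Cartpt were higher in the mutant-labelled library, and Npy (12.9 and 3.73 CPM) was lower. Vip, Trh and Cartpt passed the 5 CPM limit through the mutant-labelled library alone, and Npy through the control alone. That fixes the direction of their calls, so nothing is read from these counts. Markers of neurons and neural crest, which also make several of these peptides, had summed levels of 230 and 516 CPM in these libraries, with 10 of 13 measured called higher. Their part in these ratios was not tested. At E12.5, Penk was called higher (6.92 and 22.1 CPM) and Cartpt lower (7.11 and 3.09 CPM) among 5 measured (1.79% and 3.21% of all genes were). With stage, 4 of 7 were called higher and 2 lower in the controls (6.53% and 11.2% of all genes were). In the mutant-labelled libraries 6 of 7 were called higher and none lower (6.27% and 5.89% of all genes were). With the general epithelial genes as reference these were 2 and 2 in the controls and 6 higher in the mutant-labelled libraries. Among all genes called on that scale, 5.57% and 34.2% were higher. Relative to the pan-endocrine genes, 1 was called higher and 2 lower in the controls, and 1 higher and 1 lower in the mutant-labelled libraries, where Cartpt changed side. Gast, the gastrin gene, was among those higher in both, at 6.31 and 15.1 CPM in the controls (2.39-fold, 1.92 to 2.98), and changed side relative to the pan-endocrine genes. At E14.5 between genotypes, 7 were called higher and none lower relative to the general epithelial genes. On that scale 97.5% of all called genes were higher, so nothing is read from this count.

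Among 29 transcription factor genes tied to hormone cells, 26 were measured at E14.5, 5 called lower and 1 higher in the mutant-labelled library (6.40% and 9.64% of all genes were). Those lower included Pdx1 (126 and 57.2 CPM) and Mafa (5.48 and 1.87 CPM), activators of the insulin genes, with Glis3 and Hnf4a. Mafa and Glis3 passed the 5 CPM limit through the control alone, which fixes the direction of their calls. Irx2, found in glucagon cells, was higher (9.38 and 19.9 CPM). Neurod1 was 73.9 and 76.3 CPM. Relative to the general epithelial genes none of the 5 was called lower, none changed side, and 11 regulators were called higher. On that scale 97.5% of all called genes were higher, so nothing is read from the 11. At E12.5, 5 of 24 were called lower, namely Neurod1 (36.4 and 15.2 CPM), Pax4, Rfx6, Glis3 and Myt1, and none higher (3.21% and 1.79% of all genes were). With the general epithelial genes as reference 3 were called lower, and with the pan-endocrine genes 1. Among all genes called on these scales, 57.4% and 78.7% were higher. With stage, 8 of 25 were called higher and none lower in the controls (6.53% and 11.2% of all genes were). Mafa was among the 8 (0.377 and 5.48 CPM). In the mutant-labelled libraries 10 of 25 were called higher and 1 (Glis3) lower (6.27% and 5.89% of all genes were). Neurog3 was higher with stage in both, at 82.8 and 187 CPM in the controls and 45.5 and 223 CPM in the mutant-labelled libraries. Set against the general epithelial genes, 1 was called higher and 5 lower with stage in the controls, while in the mutant-labelled libraries 10 were called higher and 1 lower. Among all genes called on that scale, 5.57% and 34.2% were higher. Relative to the pan-endocrine genes, which include several of these regulators, 1 was called higher and 12 lower in the controls, and 2 higher and 14 lower in the mutant-labelled libraries. On that scale Neurod1 and Neurog3 changed side in the controls, and Pax6, Rfx6, Insm1 and Pou3f4 in the mutant-labelled libraries.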

How the data were processed

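The authors deposited 1 table of raw read counts per gene symbol for each of 6 libraries, and the tables' names call them deduplicated. Reads carry no molecular identifiers, so they are not independent molecules. All intervals and floors therefore cover only counting error. Per the submitters' processing notes the build was mm10, and tools named there are Cuffdiff 2.2.1 and Cufflinks 2.2.1. How reads were aligned and counted, with which annotation and with or without strand, is not given in the sources used here. Thus overlapping genes are uncertain. Ghrl and Iapp overlap genes on the opposite strand: Slco1a5, over Iapp, had no read, and those over Ghrl are not among the counted symbols. The 5 summary lines of each table were left out. Between 4.69% and 8.84% of reads fell on no gene.

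Counts were scaled with TMM factors (edgeR 4.0.16, R 4.3.3). All else used scipy 1.17.1, numpy 2.4.6, matplotlib 3.10.9 and pandas 2.3.3 under Python 3.11.15. Groups came from the labels, 1 library each, so no test across samples was made. The ratio of 2 libraries has an exact 95% interval (conditional binomial, Clopper-Pearson). Where 1 library had no read, a floor of 3 reads gave the fold, written with at least, though its interval can reach lower. Ratios within a library have exact intervals, and differences of log2 ratios have intervals from counting variances. The calculation was tested on simulated counts. Lengths and neighbours are those of GENCODE M21 on the same assembly, and spans and promoters from RefSeq.

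The genes described, the lists and the rules were chosen with earlier results of these data known. Named beside the 8 genes are those of 4 lists that were called or highest in level (not all are printed), the 3 genes nearest in profile, overlapping or adjoining genes, and Pbx2. Ghsr, Cdh1, Krt19 and Col1a1 were picked after their values were seen. The further allele of the mutant genotype and some listed genes are not reported here. Alternatives were DESeq2 1.42.0 size factors, plain CPM, TMM over the epithelial libraries, ratios relative to 2 gene lists, filters at 1 CPM or none, and thresholds of 1.5-fold, 4-fold or without an interval. Chosen after seeing the data were the RefSeq-matched length, the read shares, the relative scales for the 4 lists, and the pairs of Iapp, Ins1 and Ppy with Gcg.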

Additional observations from a re-analysis of the deposited data

Results flagged for a closer look

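Gcg went in opposite directions with stage in the genotypes. It was 802 and 863 CPM in the control epithelium at E12.5 and E14.5, a log2 change of 0.11 (0.07 to 0.14). It was 741 and 619 CPM in the mutant-labelled libraries, a log2 change of -0.26 (-0.30 to -0.22). The change in the mutant-labelled libraries minus that in the controls was -0.37. Each genotype has 1 library per stage, so the difference was not tested. Both changes were under 2-fold. With plain CPM both were below 0 (-0.05 and -0.30), as they were relative to the general epithelial genes (-0.65 and -0.47).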

How the results depend on the processing

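Across 32 ratios of a hormone gene between 2 epithelial libraries, DESeq2 size factors, plain CPM and TMM over the epithelial libraries changed no call, and plain CPM turned 1 sign, that of Gcg with stage in the controls. The scale of the general epithelial genes changed 3 calls and 9 signs, and that of the pan-endocrine genes 4 calls and 5 signs. No called ratio changed direction under these settings. The count of hormone genes called at E14.5 between genotypes went from 3 to 0 relative to the general epithelial genes and to 0 at a 4-fold threshold. At E12.5 it went from 0 to 1 with a 1.5-fold threshold. In mesenchyme against epithelium it went from 4 to 7 without a filter in the controls, and from 3 to 6 at 1 CPM and to 6 without a filter in the mutants. Plain CPM moved the all-gene median log2 ratio by -0.15 in the controls with stage, and 24.3% of called genes were then higher in place of 36.9%. Relative to the general epithelial genes, the share higher among called genes at E14.5 was 97.5% in place of 60.1%. No replicate could be left out, since each group has 1 library. No paired analysis was possible because each group holds 1 library and the labels carry no replicate numbers. Depth limits Ins1, Ins2, Sst and Ppy at E12.5, which had 1 to 38 reads.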
